A study of Homo sapiens with 6 samples.

Results

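UGT2B enzymes are UDP-glucuronosyltransferases, and those of the prostate are known for inactivating androgens. The 7 members measured here, UGT2B4, UGT2B7, UGT2B10, UGT2B11, UGT2B15, UGT2B17 and UGT2B28, were taken by symbol from a table of read counts for 29804 genes. They were chosen by the counts and fold changes they showed in these same libraries, so their levels and differences are a description and carry no test. RNA was sequenced from 22Rv1, an established line of human prostate carcinoma epithelial cells, in 3 groups of 2 libraries each, which the labels call biological replicates. WT cells had no drug and were taken at week 0. AM (age matched) cells were grown for 6 weeks without drug, in parallel with the treated cells. 6WP cells received phleomycin, a radiomimetic glycopeptide that breaks DNA, at 1 µg/ml on week days over 6 weeks. All groups were the same line, with the genotype labelled WT, in the same medium with serum. The study asked how cells that survive repeated DNA damage differ from parental cells (6WP against WT) and from cells of the same age in culture (6WP against AM), and AM against WT gives the difference over 6 weeks of culture alone. The sources do not say whether the replicates came from separately treated cultures, so p-values measure only the spread between these libraries.

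Glucuronidation joins glucuronic acid, carried by UDP-glucuronic acid, to a fat-soluble molecule, which becomes water soluble and leaves the cell through export pumps. UGT2B enzymes do this in the membrane of the endoplasmic reticulum, on steroids, bile acids and many drugs. UGT2B15 and UGT2B17 are known to conjugate dihydrotestosterone, testosterone and androstanediol in the prostate, and androgen is known to lower their transcription in prostate cells. UGT2B28 also acts on androgens. UGT2B7 is known for morphine and oestrogens, UGT2B10 for nicotine and other amines, and UGT2B4 for bile acids, all mainly in the liver, while the substrates of UGT2B11 are poorly known.

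The members lie in a single cluster of 989 kb on chromosome 4 (GRCh38, GENCODE annotation). In order along the chromosome they are UGT2B17 at chr4:68537173-68576413, UGT2B15 at chr4:68646597-68670652, UGT2B10 at chr4:68815994-68832023, UGT2B7 at chr4:69051363-69112987, UGT2B11 at chr4:69199951-69214748, UGT2B28 at chr4:69280475-69295050 and UGT2B4 at chr4:69480165-69526014. UGT2B10, UGT2B7 and UGT2B28 are on the plus strand and the others on the minus strand. The canonical transcript has 6 exons in each member except UGT2B17, which has 7. The coding sequences encode 528 to 530 amino acids. They are close copies of each other, with 97.0% identity between UGT2B11 and UGT2B28, 96.6% between UGT2B15 and UGT2B17, 95.0% between UGT2B10 and UGT2B11, and 83.9% between the least alike pair, UGT2B15 and UGT2B28.

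How far a read can be assigned to 1 member depends on where in the transcript it falls. The 60-base stretch in which the members are least alike is shown for UGT2B15 (coding bases 320 to 379) and its closest relative UGT2B17, and for UGT2B10, UGT2B11 and UGT2B28. Capitals mark bases that differ from UGT2B15, which number 6 in UGT2B17, 22 in UGT2B10 and 19 in both UGT2B11 and UGT2B28.
UGT2B15: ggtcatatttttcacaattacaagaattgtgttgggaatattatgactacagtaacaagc
UGT2B17: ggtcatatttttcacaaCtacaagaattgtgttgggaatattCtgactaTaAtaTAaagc
UGT2B10: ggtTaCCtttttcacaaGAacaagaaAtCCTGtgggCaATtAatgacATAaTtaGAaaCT
UGT2B11: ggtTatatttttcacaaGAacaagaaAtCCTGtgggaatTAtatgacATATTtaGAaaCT
UGT2B28: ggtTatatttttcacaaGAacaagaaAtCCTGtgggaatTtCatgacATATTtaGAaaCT
In the stretch in which they are most alike (coding bases 1110 to 1169 of UGT2B15), a single base separates UGT2B17 from UGT2B15, and the sequences of UGT2B10, UGT2B11 and UGT2B28 are the same as each other.
UGT2B15: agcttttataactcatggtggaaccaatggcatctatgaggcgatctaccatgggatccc
UGT2B17: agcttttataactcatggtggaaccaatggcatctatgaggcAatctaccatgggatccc
UGT2B11: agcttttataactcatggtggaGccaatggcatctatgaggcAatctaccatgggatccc
Reads were 100 bases long. Of all windows of 100 bases in the annotated transcripts, UGT2B4 and UGT2B7 shared 0 with another gene, so 100% were unique to them. Only exact matches were counted as shared, so a window that differed in a single base from another gene counted as unique. The unique share was 95.6% for UGT2B10, 94.7% for UGT2B28, 90.2% for UGT2B17, 87.6% for UGT2B15 and 83.9% for UGT2B11. UGT2B15 and UGT2B17 have 252 windows in common, which is 12.4% of the windows of UGT2B15 and 9.80% of those of UGT2B17. UGT2B10 and UGT2B11 have 50 in common and UGT2B11 and UGT2B28 have 17. Other shared windows of UGT2B10, UGT2B11 and UGT2B28 match pseudogenes of the family, and 435 exonic bases of UGT2B11 overlap an antisense RNA gene (ENSG00000250696). The handling of reads with several matches and the strand setting of the counting are not given in the sources used here. The split of reads between these members is therefore uncertain. Their sum holds whatever the split between members is, but it too depends on how reads that match a pseudogene or the antisense gene, or that have several matches, were counted.

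**Figure D1:**
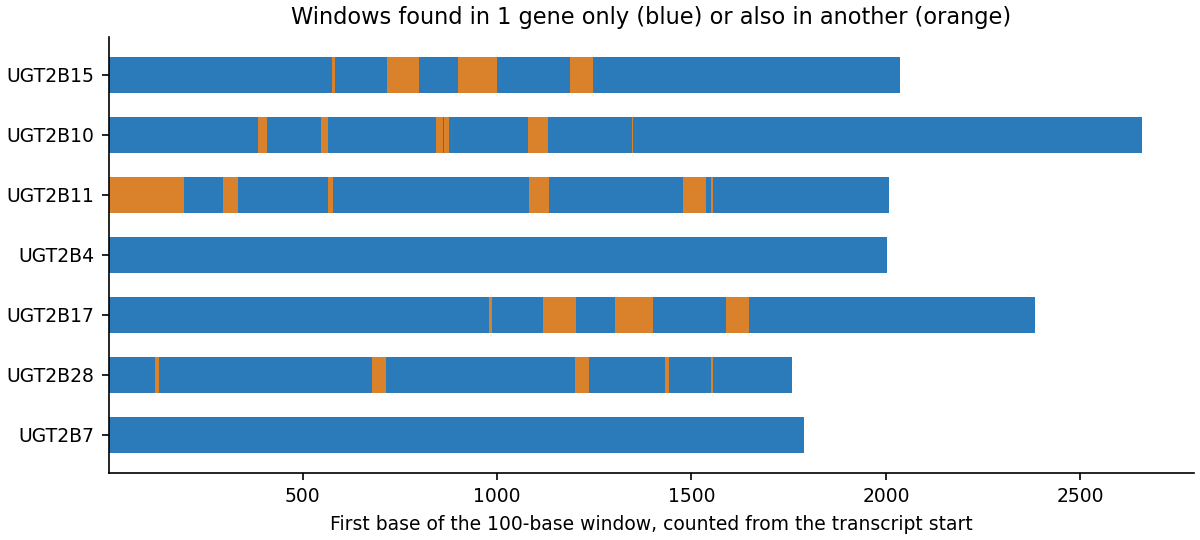
Windows of 100 bases along the canonical transcript of each UGT2B gene, with the first base of the window on the horizontal axis (bases from the transcript start) and 1 bar per gene. Blue windows occur, by exact match, in that gene only and orange windows also in another gene or pseudogene. UGT2B4 and UGT2B7 are blue throughout, and the orange blocks of UGT2B15 and UGT2B17 are the windows that the pair shares.

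Promoter sequences in RefSeq (GRCh38.p14) were at hand for UGT2B15, UGT2B10, UGT2B11 and UGT2B7, of which the first 3 passed an adjusted p of 0.05 in AM against WT (described with that comparison) and UGT2B7 did not. The 250 bases before each transcription start are printed on the strand of the gene, at chr4:68670653-68670902 for UGT2B15, chr4:68815744-68815993 for UGT2B10, chr4:69214749-69214998 for UGT2B11 and chr4:69096224-69096473 for UGT2B7. Capitals mark the motif TAAACA, a core of forkhead factors such as FOXA1, which was searched on both strands.
UGT2B15: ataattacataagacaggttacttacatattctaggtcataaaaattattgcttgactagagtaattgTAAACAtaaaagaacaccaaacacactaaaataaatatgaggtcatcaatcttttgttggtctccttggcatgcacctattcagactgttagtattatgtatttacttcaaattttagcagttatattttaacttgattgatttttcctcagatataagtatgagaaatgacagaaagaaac
UGT2B10: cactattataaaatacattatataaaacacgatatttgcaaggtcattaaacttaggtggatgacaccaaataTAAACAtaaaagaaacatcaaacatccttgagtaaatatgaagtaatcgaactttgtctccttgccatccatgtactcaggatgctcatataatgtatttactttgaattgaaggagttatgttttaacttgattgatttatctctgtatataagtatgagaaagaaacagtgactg
UGT2B11: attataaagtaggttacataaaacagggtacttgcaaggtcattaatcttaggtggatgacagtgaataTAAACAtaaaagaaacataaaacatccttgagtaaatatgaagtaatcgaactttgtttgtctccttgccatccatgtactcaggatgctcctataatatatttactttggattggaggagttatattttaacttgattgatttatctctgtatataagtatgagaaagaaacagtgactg
UGT2B7: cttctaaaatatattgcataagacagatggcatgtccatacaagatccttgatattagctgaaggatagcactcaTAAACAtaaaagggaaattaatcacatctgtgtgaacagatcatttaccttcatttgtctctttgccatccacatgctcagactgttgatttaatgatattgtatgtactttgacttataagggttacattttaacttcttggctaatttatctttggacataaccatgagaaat
The forkhead core was in all 4 sequences, 175 to 182 bases before the start, and in 11.0% of 35116 promoter sequences of this length. These are matches of letters, not measured binding. No other motif was counted, and the 11.0% is over promoters of any base composition, not over ones matched to these. The UGT2B10 and UGT2B11 sequences were 93.1% identical, and the other pairs were 67.1% to 75.4% identical, so the 4 matches are not independent of each other.

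UGT2B15 was the most abundant member in every library. WT cells gave 1175 and 1199 counts, AM cells gave 3074 and 3427, and 6WP cells gave 3405 and 2627. Scaled to the library total after TMM normalization (CPM), these are 52.4 and 55.1 in WT, 132 and 101 in AM, and 123 and 92.5 in 6WP cells. Every AM and 6WP library was above both WT libraries, and the AM and 6WP libraries overlapped. UGT2B15 made up 66.8% to 81.9% of all UGT2B counts in a library.

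UGT2B10 came next, with 7.45 and 6.38 CPM in WT, 43.2 and 26.1 CPM in AM, and 40.2 and 14.4 CPM in 6WP cells. All AM and 6WP libraries again lay above WT, but the 6WP replicates differed 2.79-fold from each other and the AM replicates 1.65-fold. UGT2B11 had 3.39 and 2.57 CPM in WT, 15.2 and 9.45 CPM in AM, and 6.65 and 1.55 CPM in 6WP cells. Both AM libraries were above all others for UGT2B11, while 6WP replicate 1 lay above WT and 6WP replicate 2 below it, a 4.29-fold difference within the group.

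UGT2B17, the partner of UGT2B15 in clearing dihydrotestosterone, was rare in this line. It had 18 and 14 counts in WT, 28 and 46 in AM, and 51 and 55 in 6WP cells, or 0.803 and 0.643, 1.21 and 1.35, and 1.84 and 1.94 CPM. The 3 groups did not overlap, and the 6WP replicates differed 1.05-fold, the smallest difference among the members in that group. Its WT counts were nearly as low as those of UGT2B7, which had 18 and 10. UGT2B17 also shares 9.80% of its windows with UGT2B15, which had 1175 to 3427 counts in a library. How many of the UGT2B17 counts came from reads of UGT2B15 was not tested. UGT2B4 had 1.70 and 1.52 CPM in WT, 3.31 and 2.88 CPM in AM, and 4.37 and 2.15 CPM in 6WP cells, with both later groups above WT and overlapping each other.

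UGT2B28 and UGT2B7 were near the limit of detection, where the floor of 3 counts equals 0.0850 to 0.141 CPM, depending on the library. UGT2B28 had 8 and 22 counts in WT, 40 and 35 in AM, and 11 and 2 in 6WP cells, so the last library was below the floor. Its CPM were 0.357 and 1.01 in WT, 1.72 and 1.03 in AM, and 0.398 and 0.0705 in 6WP cells. Both AM libraries were above both 6WP libraries, and WT overlapped 6WP. UGT2B7 had 18 and 10 counts in WT, 26 and 13 in AM, and 16 and 7 in 6WP cells, and its 3 groups overlapped.

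**Figure D2:**
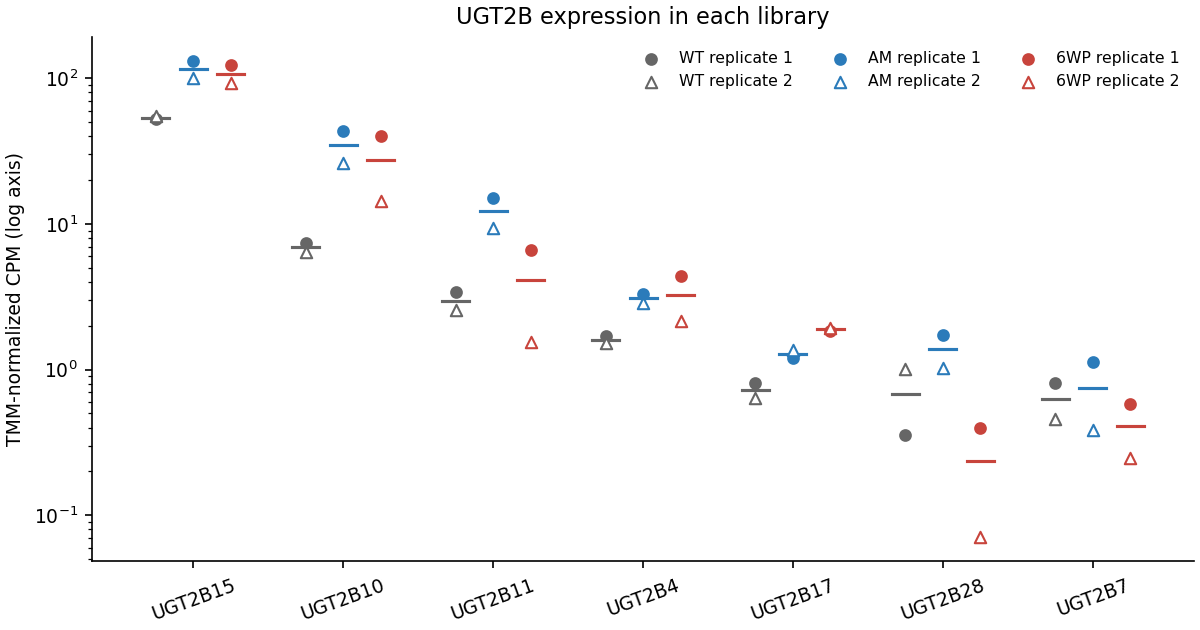
TMM-normalized CPM of each UGT2B gene on a log axis, with circles for replicate 1, open triangles for replicate 2 and a bar for the mean of each group (WT grey, AM blue, 6WP red). UGT2B15 stands at 52.4 to 132 CPM, all AM and 6WP libraries lie above WT for UGT2B15, UGT2B10, UGT2B4 and UGT2B17, and the 6WP replicates of UGT2B11 and UGT2B28 lie far apart.

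Levels can be compared between genes only per length. The RPKM scale gives CPM per kilobase of exon, with the exons of all annotated transcripts of a gene merged. On it, the mean levels in WT cells were 25.2 ± 0.868 (SD, n = 2) for UGT2B15, 2.51 ± 0.274 for UGT2B10, 1.26 ± 0.246 for UGT2B11 and 0.645 ± 0.0513 for UGT2B4. The lowest were UGT2B28 at 0.368 ± 0.249, UGT2B17 at 0.281 ± 0.0441 and UGT2B7 at 0.279 ± 0.108, whose replicates overlapped, so no order could be given among these 3. In AM cells the order of the means was the same, with UGT2B15 at 54.6 ± 10.4, UGT2B10 at 12.6 ± 4.38 and UGT2B11 at 5.22 ± 1.71 RPKM, and UGT2B17 and UGT2B7 overlapped. In 6WP cells UGT2B15 stood at 50.5 ± 10.1, UGT2B10 at 9.91 ± 6.61 and UGT2B11 at 1.74 ± 1.53 RPKM. UGT2B11 there overlapped UGT2B4 (1.31 ± 0.632), UGT2B17 followed at 0.735 ± 0.0259, and UGT2B7 and UGT2B28 overlapped each other at the bottom. Dividing by the number of windows unique to each gene in place of its exon length gave the same order of means in each group.

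Summed over the 7 members, the level was 66.9 and 67.6 CPM in WT, 198 and 142 CPM in AM, and 177 and 113 CPM in 6WP cells. All 4 later libraries were thus above WT, and AM and 6WP overlapped. The mean was 2.53 times the WT mean in AM (170.1 ± 39.5 against 67.3 ± 0.493 CPM, SD, n = 2) and 2.16 times in 6WP cells (145 ± 45.4 CPM). In 6WP cells it was 0.853 times the AM mean. The 6 members other than UGT2B15 summed to 14.5 and 12.6 CPM in WT, 65.7 and 41.2 CPM in AM, and 54.1 and 20.4 CPM in 6WP cells, so the same ordering of WT below the others held without the most abundant member. In bulk RNA, a higher level in each cell and a larger number of expressing cells cannot be told apart.

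The make-up of the sum changed between libraries. UGT2B15 made up 78.3% (95% Wilson interval 76.2% to 80.3%) and 81.4% (79.3% to 83.3%) of the UGT2B counts in WT, 66.8% (65.4% to 68.2%) and 71.0% (69.7% to 72.2%) in AM, and 69.5% (68.2% to 70.7%) and 81.9% (80.6% to 83.2%) in 6WP cells. These intervals and the floors cover counting error only. UGT2B10 made up 11.1% and 9.44% in WT, 21.8% and 18.4% in AM, and 22.7% and 12.8% in 6WP cells. Both AM libraries thus had a smaller UGT2B15 share and a larger UGT2B10 share than both WT libraries, by more than counting error. 6WP replicate 1 lay near the AM libraries and 6WP replicate 2 near the WT libraries. The UGT2B11 share was 5.07% and 3.80% in WT, 7.65% and 6.65% in AM, and 3.75% and 1.37% in 6WP cells.

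**Figure D3:**
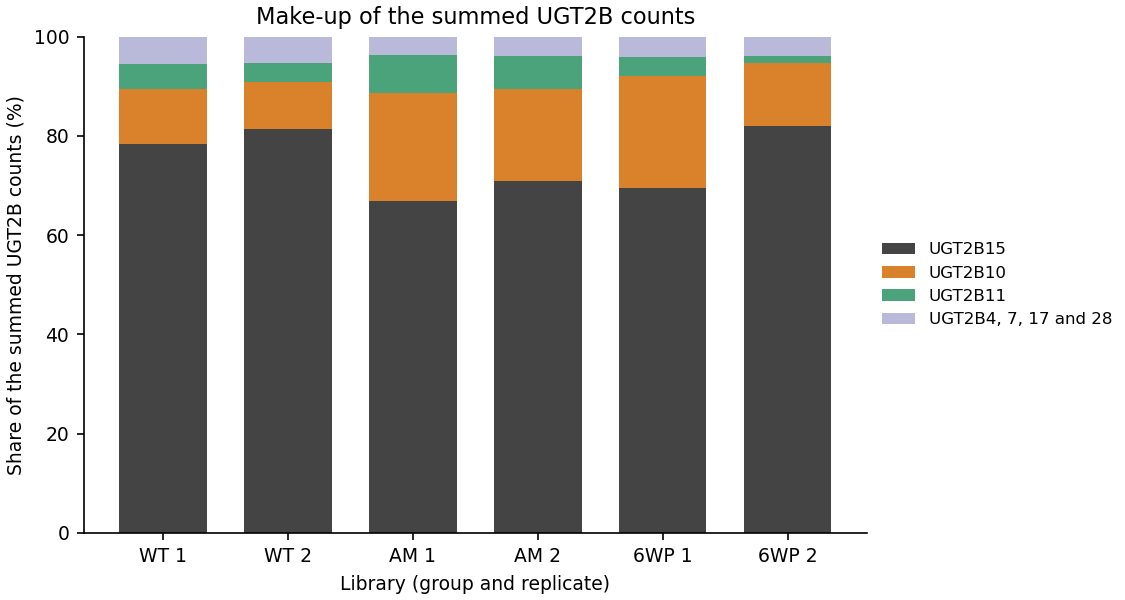
Share of the summed UGT2B counts (%) taken by UGT2B15, UGT2B10, UGT2B11 and the other 4 members together in each library (group and replicate on the horizontal axis). UGT2B15 takes between 66.8% and 81.9%, and the UGT2B10 share is largest in the AM libraries and 6WP replicate 1.

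Over 6 weeks of culture without drug (AM against WT), the difference was largest for UGT2B10, at a log2 fold change of 2.32 (standard error, SE, 0.46), and UGT2B11, at 2.03 (SE 0.57). These correspond to mean CPM ratios of 5.01 and 4.13. UGT2B15 differed by 1.12 (SE 0.18, ratio 2.17), UGT2B28 by 0.98 (SE 0.61), UGT2B4 by 0.94 (SE 0.37) and UGT2B17 by 0.82 (SE 0.32), while UGT2B7 differed by 0.17 (SE 0.62), less than its error. All 7 fold changes were positive, with a median of 0.98, where the median of all 14672 tested genes was -0.0023. In edgeR's quasi-likelihood fit across all genes, 3 of 7 members (UGT2B10, UGT2B11 and UGT2B15) passed an adjusted p of 0.05 as higher, where 7.74% of all tested genes did, 9.93% passed as lower and 17.7% in either direction. In 6 of 7 members, all but UGT2B7, the AM libraries did not overlap WT and lay above it, where the same held for 36.9% of all genes. Because the members were chosen with this contrast known, nothing follows from these counts. Leaving out any single WT or AM library ended all 3 calls, leaving 0, with UGT2B10 between 1.91 and 2.63, UGT2B11 between 1.65 and 2.33 and UGT2B15 between 0.90 and 1.29 on the log2 scale. UGT2B11 (adjusted p = 0.0434 in edgeR) also fell short with upper quartile normalization (adjusted p = 0.0520), library size only (adjusted p = 0.0577) and DESeq2 (adjusted p = 0.0634), which left 2 members each. Of all genes that passed in this comparison, 43.8% were higher, against 27.3% with upper quartile normalization and 30.5% with library size only.

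After 6 weeks of phleomycin (6WP against WT), UGT2B10 again had the largest log2 fold change, 1.98 (SE 0.46, CPM ratio 3.95). UGT2B17 followed at 1.38 (SE 0.31, ratio 2.61), then UGT2B4 at 1.02 (SE 0.37) and UGT2B15 at 1.00 (SE 0.18, ratio 2.01). UGT2B11 differed by 0.46 (SE 0.58), UGT2B7 by -0.62 (SE 0.67) and UGT2B28 by -1.53 (SE 0.78). The median of the 7 was 1.00, where that of all tested genes was 0.01. UGT2B15 passed the threshold as the only member, 1 of 7, where 3.00% of all genes passed in either direction and 1.63% as higher. The 6WP libraries lay wholly above WT in 4 of 7 members (UGT2B4, UGT2B10, UGT2B15 and UGT2B17), which 25.5% of all genes did, and wholly below in 0 of 7, which 25.2% did. As the choice of members drew on these values, the counts are given without a reading. The UGT2B15 call was lost when any single WT or AM library was left out, at log2 fold changes of 0.97 to 1.04. UGT2B11 stood at -0.96 without 6WP replicate 1 and at 1.13 without 6WP replicate 2, so that its direction rested on 1 library.

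Between the treated cells and the untreated cells of the same age (6WP against AM), the 3 members UGT2B15, UGT2B10 and UGT2B4 differed by less than their errors, with log2 fold changes of -0.11 (SE 0.17), -0.34 (SE 0.42) and 0.08 (SE 0.34). UGT2B28 was lower in 6WP cells by -2.52 (SE 0.70, CPM ratio 0.170) and UGT2B11 by -1.58 (SE 0.54, ratio 0.333). UGT2B7 stood at -0.79 (SE 0.64) and UGT2B17 at 0.56 (SE 0.28, ratio 1.48). The median was -0.34, where that of all tested genes was 0.05. UGT2B28 was the 1 member of 7 past the threshold, as lower, where 9.68% of all genes passed as lower, 11.7% as higher and 21.3% in either direction. The 6WP libraries lay wholly above AM for UGT2B17 only, which 33.8% of all genes did, and wholly below for UGT2B11 and UGT2B28, which 28.5% did. The UGT2B28 values rest on 11 and 2 counts in the 6WP libraries. Its call was lost without any single WT or AM library, and its fold change moved to -4.16 without 6WP replicate 1 and -1.77 without 6WP replicate 2. The small differences changed direction with the libraries, as UGT2B10 stood at 0.19 without 6WP replicate 2 and UGT2B15 at 0.10 without AM replicate 1. This comparison shares its AM libraries with AM against WT. Of all genes that passed, 54.6% were higher, against 68.2% with upper quartile normalization, which moved the median of all genes to 0.14, and 62.0% with library size only.

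**Figure D4:**
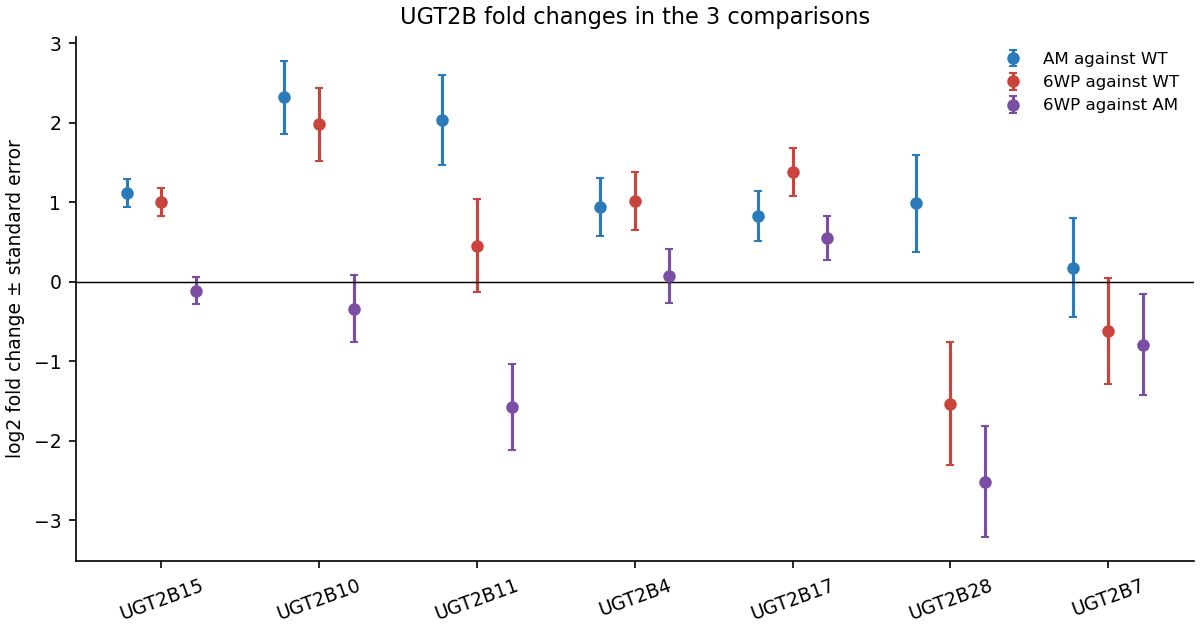
log2 fold change of each UGT2B gene in AM against WT (blue), 6WP against WT (red) and 6WP against AM (purple), with bars of 1 standard error from the fit to all 6 libraries. UGT2B15, UGT2B10, UGT2B4 and UGT2B17 are above 0 in both comparisons with WT, whereas UGT2B11 and UGT2B28 stand at -1.58 and -2.52 in 6WP against AM.

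Replicates of several members lay far apart. Over all tested genes, the median absolute log2 difference between the WT replicates was 0.12, between the AM replicates 0.13 and between the 6WP replicates 0.28. In 6WP cells, 5 of 7 members exceeded a 2-fold difference, with UGT2B28 at 5.64-fold, UGT2B11 at 4.29-fold, UGT2B10 at 2.79-fold, UGT2B7 at 2.35-fold and UGT2B4 at 2.04-fold. UGT2B15 differed 1.33-fold. Replicate 2 held the lower value in 6 of 7 members in AM and in 6WP cells and in 5 of 7 in WT, where 44.9%, 50.6% and 49.7% of all tested genes were lower in that library.

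Genes listed for the supply of UDP-glucuronic acid, the co-substrate of all UGT2B enzymes, moved in both directions. The list held 7 genes, all tested, and its median log2 fold change was 0.05 in AM against WT, -0.09 in 6WP against WT and -0.19 in 6WP against AM. UGDH, which makes UDP-glucuronic acid, had 251 and 232 CPM in WT, 296 and 254 in AM, and 149 and 182 in 6WP cells. It fell by 0.74 on the log2 scale in 6WP against AM (SE 0.14, edgeR adjusted p = 0.0108), with -0.55 (adjusted p = 0.0734) in 6WP against WT. UGP2, which makes the UDP-glucose that UGDH uses, rose in AM against WT by 0.39 (SE 0.11, adjusted p = 0.0390) and fell in 6WP against AM by 0.49 (SE 0.11, adjusted p = 0.0179). The first of these calls was lost with upper quartile normalization (0.30, adjusted p = 0.0806), library size only (0.33, adjusted p = 0.0591) and a replicate block (0.39, adjusted p = 0.0588). SLC35B1, a carrier of the endoplasmic reticulum membrane, moved most, from 78.1 and 68.2 CPM in WT to 170.3 and 183 in AM and 69.2 and 52.4 in 6WP cells. That is 1.27 (SE 0.15, adjusted p = 0.0037) in AM against WT and -1.54 (SE 0.15, adjusted p = 0.00203) in 6WP against AM. SLC35D2, a nucleotide sugar carrier, went the other way, by -0.88 (adjusted p = 0.0236) and 0.97 (adjusted p = 0.0147). Whether SLC35B1 or SLC35D2 carries UDP-glucuronic acid in these cells was not tested. SLC35D1, the carrier known to bring UDP-glucuronic acid into the endoplasmic reticulum, passed in no comparison, with -0.10 (adjusted p = 0.642), -0.29 (adjusted p = 0.276 in 6WP against WT) and -0.19 (adjusted p = 0.363). In all, 2 of the list rose and 1 fell in AM against WT, and 1 rose and 3 fell in 6WP against AM. In 6WP against WT, 0 of 7 passed in edgeR, with 1 at an unadjusted p under 0.05 and 1 in DESeq2.

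Of 17 other UDP-glycosyltransferases, 8 were in the table and 4 were tested, and the UGT1A genes were not analysed here. UGT2A1 and UGT2A2, which lie beside the UGT2B cluster, had 0 counts in every library, and UGT2A3, within it, at most 5. UGT8, which makes galactosylceramide, fell in 6WP against AM by 0.86 (SE 0.15, adjusted p = 0.00883), and UGGT1, the glucosyltransferase that checks glycoprotein folding, fell by 0.76 (SE 0.11, adjusted p = 0.0053). UGGT1 also fell in 6WP against WT by 0.59 (SE 0.11, adjusted p = 0.0329). UGT3A2, which uses other sugars, was low and rose in AM against WT from 7 counts in each WT library to 19 and 44 (1.75, SE 0.45, adjusted p = 0.0333). The list thus had 1 of 4 higher in AM against WT, 1 lower in 6WP against WT and 2 lower in 6WP against AM, with medians of 0.21, -0.60 and -0.81.

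Of 6 genes for export of glucuronides and their hydrolysis, 5 were tested. ABCG2, a pump for steroid conjugates and drugs, had 4.33 and 3.72 CPM in WT, 8.09 and 8.27 in AM, and 2.31 and 1.41 in 6WP cells. It rose in AM against WT by 1.02 (SE 0.25, adjusted p = 0.0293) and fell in 6WP against AM by 2.14 (SE 0.26, adjusted p = 0.00354). GUSB, the lysosomal enzyme that removes glucuronic acid, fell in AM against WT by 0.44 (SE 0.11, adjusted p = 0.0301). Thus 1 rose and 1 fell in AM against WT, 1 fell in 6WP against AM, and 0 passed in 6WP against WT in edgeR, with 3 at an unadjusted p under 0.05 and 2 in DESeq2. The medians were -0.44, -0.01 and -0.47.

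Steroid enzymes make, reduce, oxidize or sulphate the androgens that UGT2B enzymes use. Of 29 listed, 14 were tested. AKR1C3, which makes testosterone from androstenedione, had 21.7 and 24.2 CPM in WT, 17.6 and 21.0 in AM, and 41.1 and 37.6 in 6WP cells. It rose in 6WP against WT by 0.78 (SE 0.14, adjusted p = 0.0328) and in 6WP against AM by 1.03 (SE 0.14, adjusted p = 0.00473), and AKR1C2, which reduces dihydrotestosterone, rose in 6WP against AM by 0.92 (SE 0.19, adjusted p = 0.0142). These AKR1C genes are themselves close copies, so the split of reads between them is uncertain. STS, the steroid sulphatase, rose in AM against WT by 0.66 (adjusted p = 0.0391) and fell in 6WP against AM by 0.99 (adjusted p = 0.00978), where the rise missed the threshold with upper quartile normalization (adjusted p = 0.0640) and library size only (adjusted p = 0.0536). HSD17B10, a mitochondrial steroid dehydrogenase, did likewise, by 0.67 (adjusted p = 0.0146) and 0.52 (adjusted p = 0.0280). RDH5, a retinol and steroid dehydrogenase, fell in AM against WT by 1.93 (SE 0.31, adjusted p = 0.00839) and was higher in 6WP than in AM by 1.35 (adjusted p = 0.0211). HSD17B11 fell in AM against WT by 0.49 (adjusted p = 0.0264). In all, 2 rose and 2 fell in AM against WT, 1 rose in 6WP against WT, and 4 rose and 3 fell in 6WP against AM.

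Of 20 genes known to respond to androgen in prostate cells, 18 were tested. In AM against WT, 2 rose and 5 fell, with a median of -0.09. SLC45A3 (prostein) fell by 1.60 (SE 0.28, adjusted p = 0.0109) and ZBTB16, a transcriptional repressor, fell by 1.06 (SE 0.21, adjusted p = 0.0141), while KLK2, a prostate kallikrein, rose by 0.81 (SE 0.12, adjusted p = 0.00759) and ACSL3, a fatty acid ligase, by 0.64 (SE 0.12, adjusted p = 0.0126). In 6WP against AM, 3 rose and 4 fell, with SLC45A3 up by 1.44 (adjusted p = 0.0128), KLK2 at -0.50 (adjusted p = 0.0267), ACSL3 at -1.11 (adjusted p = 0.00235) and CENPN, a centromere protein, at -0.96 (adjusted p = 0.0163). In 6WP against WT, 0 of 18 passed in edgeR, with 7 at an unadjusted p under 0.05 and 3 in DESeq2. There 4 of the 18 fold changes were positive and 14 negative, with a median of -0.22, where that of all tested genes was 0.01. In AM against WT 5 were positive and 13 negative, and in 6WP against AM 9 and 9. Any relation of these genes to the members was not tested.

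Of 17 factors known or proposed to act on UGT2B transcription that are reported here, 11 were tested. FOXA1, the forkhead factor of luminal prostate cells, had 418 and 462 CPM in WT, 350 and 382 in AM, and 465 and 599 in 6WP cells. It rose in 6WP against AM by 0.54 (SE 0.14, adjusted p = 0.0325), with -0.27 (adjusted p = 0.217) in AM against WT. CEBPB, a stress and inflammation factor, had 12.4 and 14.0 CPM in WT, 17.6 and 21.6 in AM, and 54.5 and 35.4 in 6WP cells, and rose in 6WP against WT by 1.77 (SE 0.22, adjusted p = 0.0089) and in 6WP against AM by 1.19 (SE 0.21, adjusted p = 0.00996). Thus 1 rose in 6WP against WT and 2 rose in 6WP against AM, with medians of 0.27 and 0.42. In AM against WT 0 of 11 passed in edgeR, with 2 at an unadjusted p under 0.05, 0 in DESeq2 and a median of -0.20. No relation between these factors and the members was tested.

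**Figure D5:**
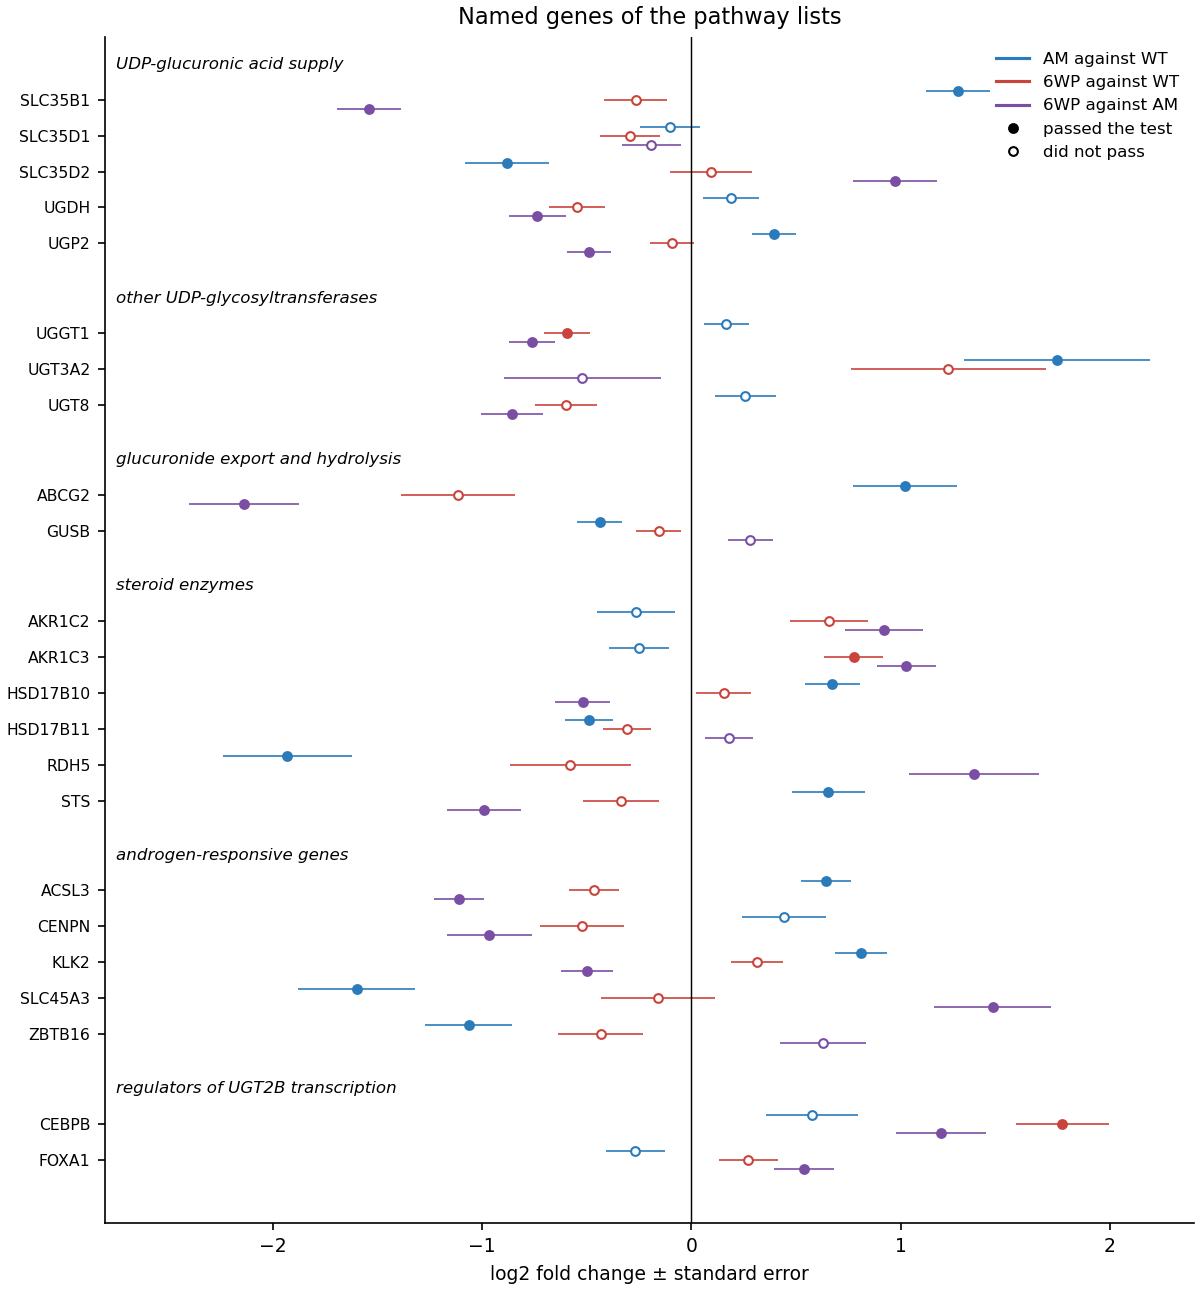
log2 fold change with 1 standard error for the named genes of 6 pathway lists in AM against WT (blue), 6WP against WT (red) and 6WP against AM (purple), where filled points passed an adjusted p of 0.05 over all tested genes. SLC35B1, ABCG2 and STS are above 0 in AM against WT and below 0 in 6WP against AM, and AKR1C3 and CEBPB are the filled points above 0 in 6WP against WT.

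Over these 6 lists, 17 calls were made in AM against WT, 3 in 6WP against WT and 23 in 6WP against AM. The lists had 7, 4, 5, 14, 18 and 11 tested genes, in the order given above. Of all tested genes, 17.7%, 3.00% and 21.3% passed in either direction in these comparisons. Leaving out WT replicate 1, WT replicate 2 or AM replicate 2 ended all 17 calls in AM against WT, and leaving out AM replicate 1 kept 1. In 6WP against WT, leaving out a WT library kept 0 and leaving out an AM library kept 1. In 6WP against AM, 3 were kept without AM replicate 1, 2 without AM replicate 2 and 13 without either WT library. Without a 6WP library, all of these calls were kept in all 3 comparisons. With only the 2 groups compared in the fit, 17 were kept in AM against WT, 1 in 6WP against WT and 13 in 6WP against AM. Under the other scalings 15 to 16, 3 and 22 were kept.

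The genes around the cluster were mostly silent. Within 1 Mb on either side, 28 other protein-coding genes were in the table, most of which were too low to be tested, with at most 5 counts in any library. Of the 4 tested, CENPC (centromere), UBA6 (ubiquitin activation), YTHDC1 (RNA methylation reader) and ODAM, 0 passed in any comparison in edgeR or DESeq2, with 1 at an unadjusted p under 0.05 in 6WP against WT, 1 in 6WP against AM and 0 in AM against WT. Their log2 fold changes ranged from -0.73 to 0.04 in AM against WT and from -1.50 to -0.11 in 6WP against WT.

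Genes whose profile over the 6 libraries was nearest to the summed members were sought among 12032 tested genes, by Euclidean distance between centred log2 CPM profiles. The nearest was APLP1, an amyloid precursor-like protein (distance 0.35), with 41.9 and 44.9 CPM in WT, 107.6 and 97.7 in AM, and 95.5 and 62.5 in 6WP cells. TRAF3IP2-AS1 (0.43), U2AF1L4, a splicing factor (0.44), WARS, the tryptophanyl-tRNA synthetase (0.49), and LOC101927929 (0.52) followed. All 5 had WT below the other groups, and this likeness is a description over the 6 libraries.

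Totals of the libraries lay between 21222201 and 35311945 counts, and the members took 0.0068% to 0.0197% of them. All 10 prostate luminal markers were above the floor in every library, with sums of 3537 to 3764 CPM in WT, 2547 to 2898 in AM and 2976 to 4079 in 6WP cells. In AM against WT, 4 of them had positive and 6 negative fold changes, and 1 passed as higher and 3 as lower. KRT8, a luminal keratin, fell by 0.78 (edgeR adjusted p = 0.0132), while KLK2 rose by 0.81 (adjusted p = 0.00759). In 6WP against AM, 2 passed as higher and 1 as lower. In 6WP against WT 0 passed in edgeR, with 3 at an unadjusted p under 0.05 and 1 in DESeq2. UGT2B genes are also liver genes, and the 8 hepatocyte markers summed to 1267 to 1618 CPM in WT, 467 to 589 in AM and 299 to 941 in 6WP cells. This sum was nearly all ALB (named after its values were seen), while APOA1, APOA2, APOC3 and FGB stayed at or below 0.22 CPM, and 0 of 4 tested hepatocyte markers passed in any comparison, with 1 in each at an unadjusted p under 0.05 and 0 in DESeq2. All AM and 6WP libraries were thus below both WT libraries in this sum, which follows ALB. Of the 4 tested markers, 0 had a positive fold change in AM against WT (median log2 fold change -0.83). In 6WP against WT 3 were positive and 1 was negative (median 0.26). The 7 fibroblast markers summed to 17.1 to 21.0 CPM in WT, 2.21 to 3.79 in AM and 3.35 to 5.57 in 6WP cells. Of 5 tested, 2 passed as lower in both comparisons with WT. LUM (lumican) had 345 and 270 counts in WT, 11 and 10 in AM, and 36 and 12 in 6WP cells, and fell by 5.21 (edgeR adjusted p = 0.00178) in AM and by 4.01 (adjusted p = 0.00528) in 6WP against WT. DCN (decorin) fell by 3.59 (adjusted p = 0.00676) and 3.95 (adjusted p = 0.0142). The tested fibroblast markers did not all go this way. In AM against WT 1 was positive and 4 negative (median -1.37), and in 6WP against WT 2 and 3 (median -0.40). In 6WP against AM 4 were positive and 1 negative (median 0.71), and 0 passed in edgeR. The 6 leukocyte markers summed to 3.35 to 3.88 CPM in WT, to at least 3.89 in AM and to 3.43 to 3.52 in 6WP cells, with CD3E and PTPRC at 0 in every library. The 7 neuroendocrine markers summed to 238 to 243 CPM in WT, 293 to 313 in AM and 281 to 297 in 6WP cells, most of it ENO2, at 185 to 243 CPM, which passed in no comparison. Of 4 tested, 2 passed as higher in 6WP against WT, 1 in AM against WT and 1 in 6WP against AM. SYP (synaptophysin) had 34.9 and 37.9 CPM in WT, 52.8 and 56.8 in AM, and 58.5 and 65.3 in 6WP cells, and rose by 0.59 (edgeR adjusted p = 0.0159) in AM and by 0.77 (adjusted p = 0.0199) in 6WP against WT. CHGA (chromogranin A) had 1.43 and 2.20 CPM in WT, 4.48 and 3.80 in AM, and 5.31 and 17.5 in 6WP cells, and rose in 6WP against WT by 2.65 (SE 0.54, adjusted p = 0.0450). CHGB (chromogranin B) had 7.14 and 7.62 CPM in WT, 9.64 and 8.68 in AM, and 12.7 and 29.8 in 6WP cells, and rose in 6WP against AM by 1.22 (adjusted p = 0.0406), with 1.53 (adjusted p = 0.0612) in 6WP against WT. In these 3 genes all AM and 6WP libraries lay above both WT libraries. Of all tested genes, 36.9% lay wholly above WT in AM and 25.5% in 6WP cells. ENO2, the other tested marker, stood at a log2 fold change of -0.005 in 6WP against WT. With only the 2 groups compared, 0 of 4 passed in 6WP against WT or 6WP against AM, and leaving out a library gave 0 to 3 in each comparison. The part of these cell type genes in the UGT2B values was not tested.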

How the data were processed

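RNA of 6 libraries of 22Rv1 cells (WT, AM and 6WP, 2 each) was prepared with a stranded TruSeq protocol and sequenced as single reads of 100 bases. Per the study's methods and the submitters' processing notes, the authors aligned reads to hg38 with STAR (v2.5.3a), assembled transcripts with StringTie (v1.3.3) and normalized with TMM before testing in edgeR (v3.22.3). featureCounts (v1.5.3) is also listed. The deposited values are raw counts per gene symbol. They hold no normalization, and 0 sample columns were left out. Strand setting, annotation and handling of reads with several matches are not given in the sources used here.

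Genes were kept with filterByExpr (14672 of 29804, all 7 members included). TMM factors and a quasi-likelihood fit to all 6 libraries without covariates were computed in edgeR 4.0.16 (R 4.3.3), two-sided, with p-values adjusted over all tested genes by Benjamini-Hochberg at 0.05. The SE was taken as the absolute log2 fold change over the root of F. An exact permutation test of 2 against 2 libraries cannot go below p = 0.333. The members and lists were chosen with earlier results of these data known. Named are all members, genes of a list past the threshold (at most the 4 smallest p where more than 4 passed), 8 fixed pathway genes whatever their p, and the 5 genes nearest in profile. Lists came from general knowledge, and some genes of the lists are not reported here. The fit was tested on simulated counts. Windows and coding sequences came from GENCODE 44 transcripts, aligned with MAFFT 7.526. Alternatives included DESeq2 1.42.0, other scalings and filters, a replicate block, 2-group fits and each library left out.

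Library totals (21222201 to 35311945 counts) place 3 counts at 0.0850 to 0.141 CPM. Over all tested genes, same-numbered libraries hardly deviated together, so no pairing was used in the main test.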

Additional observations from a re-analysis of the deposited data

How the results depend on the processing

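Across 99 fold changes of single genes and 1475 values under alternatives, 1240 kept direction and side of the threshold, 154 fell short of it, 81 newly passed it, and 0 called values turned direction. The number of genes past the threshold in 6WP against WT was 440, against 894 with no filter beyond 1 count, 1124 with the Wald test of DESeq2, 1492 with the likelihood ratio test and 96 with only the 2 groups compared. With only those groups it was 1309 in place of 3131 in 6WP against AM, and 6620 in place of 2593 in AM against WT. The number of members past the threshold in 6WP against WT was 1, against 3 with no filter, 2 with at least 10 counts in every library, 2 with DESeq2, 3 with the likelihood ratio test and 0 with only the 2 groups compared. In AM against WT it was 3, against 2 with upper quartile normalization, library size only or DESeq2 and 4 with only the 2 groups compared. In 6WP against AM it was 1, against 2 with no filter, 0 with at least 10 counts (which removes UGT2B28), 2 with the likelihood ratio test and 0 with only the 2 groups compared. Other causes were not tested.

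Deviations from the group mean over all tested genes correlated at 0.04 (WT and AM), 0.09 (WT and 6WP) and -0.02 (AM and 6WP) between same-numbered libraries. These are weak correlations over genes at large, and shared handling of same-numbered libraries was not tested. A replicate block gave 2 members in 6WP against WT and 2 in 6WP against AM, where 1 passed in each without it, and changed neither the 3 members in AM against WT nor a count of genes by over 1.5 times.

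When each library was left out, the number of genes past the threshold ranged from 0 to 3870 in 6WP against WT, from 116 to 6807 in 6WP against AM and from 67 to 6654 in AM against WT. The members past it ranged from 0 to 5, from 0 to 4 and from 0 to 4. Where this left 1 library in a group, that library was assumed to vary like the others. The log2 ratio of the summed level ranged from 0.75 to 1.40, from -0.59 to 0.06 and from 1.08 to 1.56, and for 6WP against AM (-0.23 with all libraries) it was above 0 both without 6WP replicate 2 (0.06) and without AM replicate 1 (0.03).

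Counts were low for UGT2B28 (at most 40 in a library) and UGT2B7 (at most 26), so small differences in these members were not detectable at this depth.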
